A study of Rattus norvegicus with 20 samples.

Results

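The enzymes and transport proteins of peroxisomal beta-oxidation were followed in rat liver over 4 diets. The set consists of 9 named genes, taken as every probe set that the array's platform annotation gives to Abcd3, Ehhadh, Hsd17b4, Acaa1a, Scp2, Ech1, Eci2, Decr2 or Cat. Of these 9 genes, 8 had a probe set of their own, and all 8 were among the 11576 genes tested. Scp2 had 2 such probe sets. Acaa1a was measured only on a probe set annotated to both Acaa1a and Acaa1b, called the shared thiolase probe set here, whose signal cannot be assigned to either gene.

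Liver RNA came from male Sprague-Dawley rats that had been 4 weeks old on arrival and had been kept for 7 d on a stock diet before the experiment. The groups received 0.2% sesamin, 0.2% episesamin, 0.2% sesamolin or no lignan in the diet for 15 d, and all rats were of the same strain and sex. Each diet was fed to 7 rats and the RNA of 5 was hybridised, 1 Affymetrix array per rat, after the heaviest and the lightest rat of each diet had been set aside. The lignans are compounds of sesame: episesamin is the epimer of sesamin at the carbon that bears one of the methylenedioxyphenyl groups, and sesamolin has an ether oxygen between one such group and the furofuran ring.

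Peroxisomes shorten very long-chain, branched-chain and dicarboxylic fatty acids that mitochondria handle poorly. Acyl-CoA enters through ABC transporters of the membrane, a first oxidation makes a double bond and releases hydrogen peroxide, a bifunctional enzyme hydrates and dehydrogenates the product, and a thiolase splits off acetyl-CoA. Isomerases and reductases prepare unsaturated acyl chains for this cycle, catalase removes the hydrogen peroxide, and in rodent liver many of these genes are known targets of the nuclear receptor PPARalpha.

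The DNA just before the start of transcription is shown for 3 members, because their RNA behaved differently over the diets: Ehhadh had the greatest change in the set with episesamin and sesamolin, Hsd17b4 encodes the enzyme of the same step and changed less, and Cat did not pass any test. Sequences are RefSeq promoter entries on the GRCr8 assembly, printed 5′ to 3′ on the gene's own strand as the 250 bases before the annotated start. Capitals mark the hexamer AGGTCA, the unit that nuclear receptors such as PPARalpha and RXR bind in pairs.
Ehhadh, chr11:92746159-92746408, plus strand: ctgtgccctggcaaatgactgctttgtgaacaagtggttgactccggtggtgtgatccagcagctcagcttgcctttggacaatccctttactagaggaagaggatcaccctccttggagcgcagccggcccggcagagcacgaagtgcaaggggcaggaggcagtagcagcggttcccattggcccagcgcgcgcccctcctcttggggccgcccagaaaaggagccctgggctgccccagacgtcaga
Hsd17b4, chr18:45515177-45515426, plus strand: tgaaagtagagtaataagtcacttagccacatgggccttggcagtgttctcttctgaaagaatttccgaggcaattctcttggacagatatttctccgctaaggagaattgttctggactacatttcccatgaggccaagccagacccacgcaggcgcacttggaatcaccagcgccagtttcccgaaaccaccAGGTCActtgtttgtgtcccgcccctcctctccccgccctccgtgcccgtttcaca
Cat, chr3:110329527-110329776, minus strand: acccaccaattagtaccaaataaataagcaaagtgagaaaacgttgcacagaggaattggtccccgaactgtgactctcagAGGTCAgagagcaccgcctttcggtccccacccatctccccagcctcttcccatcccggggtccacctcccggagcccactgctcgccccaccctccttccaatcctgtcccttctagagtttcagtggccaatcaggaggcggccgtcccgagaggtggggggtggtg
The windows searched ran from 250 bases before to 50 bases after the start, on both strands, and were at hand for 8 of the 9 members. The hexamer AGGTCA was present in 3 of 8 (Hsd17b4, Eci2 and Cat) and in 16.18% of 33469 rat promoter windows of the same length. Its first base was at −56 from the start in Hsd17b4 and at −169 in Cat. The direct repeat AGGTCANAGGTCA was in none of the 8, with 0.05378% of all windows holding it. CCAAT was in 4 of 8 members against 37.49% of all windows, and GGGCGG in 7 of 8 against 33.06%. A match says only that these letters are in the window. The lack of a match, as for AGGTCA in Ehhadh, says nothing of variant letters or of sites outside the window.

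Mean raw intensity per array ran between 159 and 271, and no difference in it between a lignan diet and the lignan-free diet passed an exact permutation test (two-sided p = 0.540, 0.151 and 0.262 for sesamin, episesamin and sesamolin, n = 5 each). Hepatocyte markers (9 of 10 above the filter level, a normalized intensity of 17.8; Tf below it) had summed intensities of 101697 to 105578 with sesamin, 99736 to 106088 with episesamin and 102832 to 107352 with sesamolin, against 102087 to 107598 without lignan, and none was called. Markers of Kupffer cells and macrophages (12 of 14 above the filter level; Marco and Vsig4 below it) summed to 5886 to 9295, 5924 to 7155 and 4780 to 6646 in the same order of lignans, against 8134 to 9285 without lignan. Of these 12, 0 were lower with sesamin, 3 with episesamin and 7 with sesamolin, where 0.0346%, 2.21% and 2.95% of all genes tested were called lower. Of 9 measured endothelial markers (Cdh5 and Clec4g below the filter level), 0, 2 and 2 were lower, against the same shares of all genes, with sums of 3861 to 4099, 3613 to 4010 and 3380 to 4095, against 4059 to 4680 without lignan. None of 12 stellate cell and fibroblast markers was called, with sums of 3851 to 4476, 3826 to 4566 and 3282 to 4450, against 4427 to 6702 without lignan. None of 3 measured bile duct markers (Krt7 and Sox9 below the filter level) was called. Their sums were 170 to 246, 177 to 285 and 271 to 326, against 190 to 254 without lignan. All these sums are of normalized intensities. Quantile normalization gives the brightest probe sets of every array nearly the same values, which limits how far the hepatocyte sums could differ. Lower RNA per cell and fewer cells of a type cannot be told apart in whole liver, and the part of these cell types in the values below was not tested.

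Every lignan raised the RNA of several members of the pathway and left others uncalled. The log2 changes below are given ± SE, with 5 rats in each diet, from limma on the 20 arrays together, and a gene is called where its Benjamini-Hochberg adjusted p over the 11576 genes is below 0.05. With sesamin, 4 of the 8 members were called higher (Ehhadh, Ech1, Decr2 and Eci2), where 0.397% of all genes were called higher. Episesamin and sesamolin each raised 6 of 8, namely these 4 with Abcd3 and Hsd17b4, where 2.91% and 3.28% of all genes were called higher. None was called lower with any lignan, where 0.0346%, 2.21% and 2.95% of all genes were, and Scp2 and Cat were not called with any. All 5 lignan arrays lay above all 5 lignan-free arrays for 5, 6 and 6 of the 8 members, where 1.09%, 3.81% and 3.7% of all genes separated in this way. The median log2 change of the 8 members was 0.36 with sesamin, 0.77 with episesamin and 0.76 with sesamolin, against medians of −0.0094, −0.018 and −0.0093 over all genes tested. These comparisons share the 5 lignan-free arrays. Without normalization between arrays the counts were 2, 3 and 3, as the calls of Eci2 and Decr2 with sesamin and of Abcd3, Hsd17b4 and Eci2 with the other two lignans were lost; no change turned its sign among the called members.

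**Figure D1:**
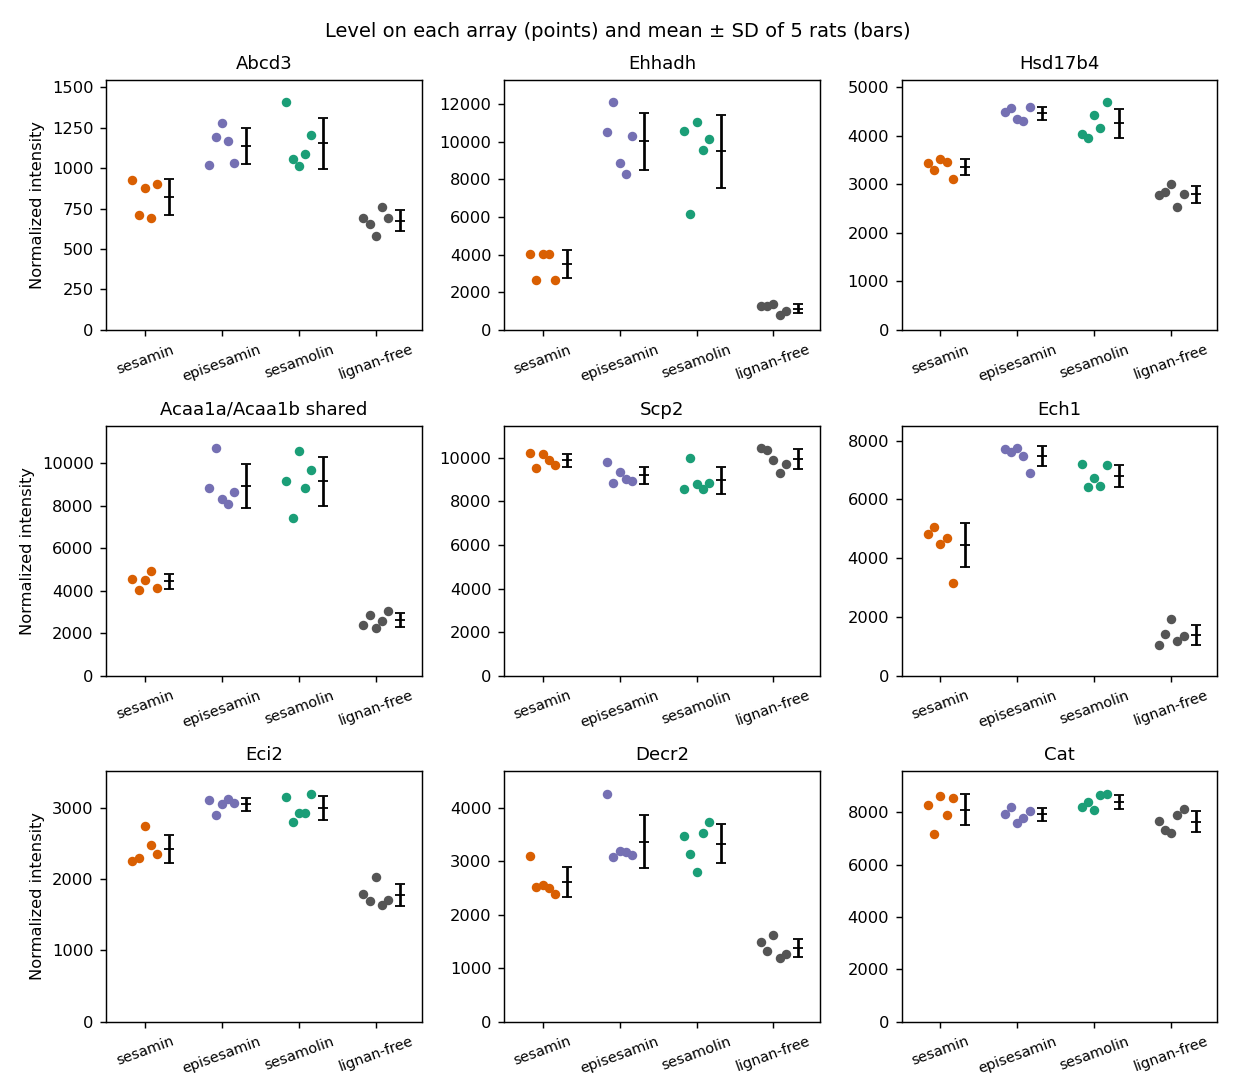
Normalized intensity (linear axis starting at 0) of 8 members and the shared thiolase probe set on each of the 20 arrays, with 1 point per rat, bars for the mean ± SD of 5 rats and diets from left to right as sesamin, episesamin, sesamolin and lignan-free. Ehhadh, Hsd17b4, Ech1, Decr2, Eci2 and the shared thiolase probe set have no lignan array at or below the highest lignan-free array, whereas Scp2 and Cat overlap between the diets.

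**Figure D2:**
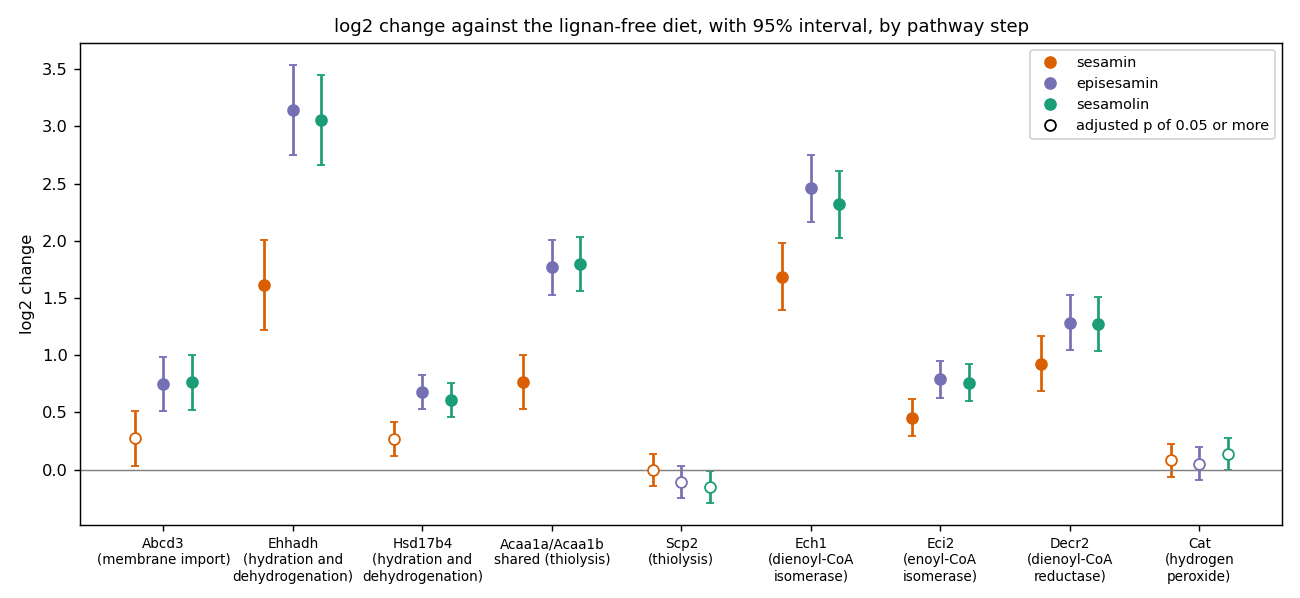
Log2 change against the lignan-free diet for 8 members and the shared thiolase probe set, with points for sesamin, episesamin and sesamolin (open where not called) and bars for the 95% interval of the fit. Ehhadh spans 1.61 to 3.15 and Ech1 1.69 to 2.46, while the values of Scp2 and Cat lie between −0.15 and 0.14.

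Entry into the peroxisome was represented by Abcd3, also known as PMP70, an ABC transporter of the peroxisomal membrane that carries long-chain and branched-chain acyl-CoA. Its normalized intensity was 925, 707, 878, 689.7 and 902 in the 5 rats fed sesamin, 1020.3, 1193, 1279, 1166 and 1029 with episesamin and 1405, 1055, 1014, 1086 and 1206 with sesamolin, against 693, 652, 582, 761 and 691 without lignan. All arrays of the episesamin and sesamolin diets lay above all lignan-free arrays, and the sesamin arrays overlapped with them. Abcd3 rose 1.68-fold with episesamin (log2 change 0.75 ± 0.11, adjusted p = 0.000385) and 1.69-fold with sesamolin (0.76 ± 0.11, adjusted p = 0.00033). With sesamin its log2 change was 0.27 ± 0.11 (95% interval 0.035 to 0.51) and was not called (adjusted p = 0.586).

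The hydration and dehydrogenation steps are carried out by 2 bifunctional enzymes of opposite stereochemistry. Ehhadh, the L-bifunctional enzyme, is used for straight and dicarboxylic chains, and Hsd17b4, the D-bifunctional enzyme, is also needed for branched chains and bile acid precursors. Ehhadh had normalized intensities of 4034, 2676, 4049, 4025 and 2661 with sesamin, 10486, 12072, 8850.1, 8291 and 10308 with episesamin and 10535, 6143, 11049, 9552 and 10128 with sesamolin, against 1262, 1247, 1391, 791 and 990.4 without lignan. The lowest lignan array, at 2661, was above the highest lignan-free array, at 1391. Ehhadh rose 3.06-fold with sesamin (log2 change 1.61 ± 0.19, adjusted p = 5.54e-05), 8.86-fold with episesamin (3.15 ± 0.19, adjusted p = 1.13e-09) and 8.3-fold with sesamolin (3.05 ± 0.19, adjusted p = 1.82e-09). By log2 change it ranked 16, 9 and 10 from the highest among the 11576 genes in these comparisons.

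Hsd17b4 moved over a narrower range. Its normalized intensities were 3440.1, 3286, 3509, 3457 and 3102 with sesamin, 4493, 4573, 4334, 4308 and 4585 with episesamin and 4041, 3957, 4419.6, 4149.8 and 4683 with sesamolin, against 2779, 2849, 3006, 2523 and 2789 without lignan. The arrays of each lignan lay above the highest lignan-free array. Hsd17b4 rose 1.6-fold with episesamin (log2 change 0.68 ± 0.070, adjusted p = 3.55e-06) and 1.52-fold with sesamolin (0.61 ± 0.070, adjusted p = 1.73e-05). Its log2 change of 0.27 ± 0.070 with sesamin was not called (adjusted p = 0.168), although trended and robust moderation of the variances would call it (adjusted p = 0.0242).

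The 2 enzymes of this step were set against each other on each array as the difference of their log2 values, relative to the lignan-free mean. Ehhadh gained on Hsd17b4 by 1.34 with sesamin, 2.47 with episesamin and 2.45 with sesamolin. In each case all 5 lignan arrays exceeded all 5 lignan-free arrays, which gives the smallest p that an exact permutation test of 5 against 5 arrays allows (two-sided p = 0.00794, adjusted p = 0.0102 over 18 such tests).

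**Figure D3:**
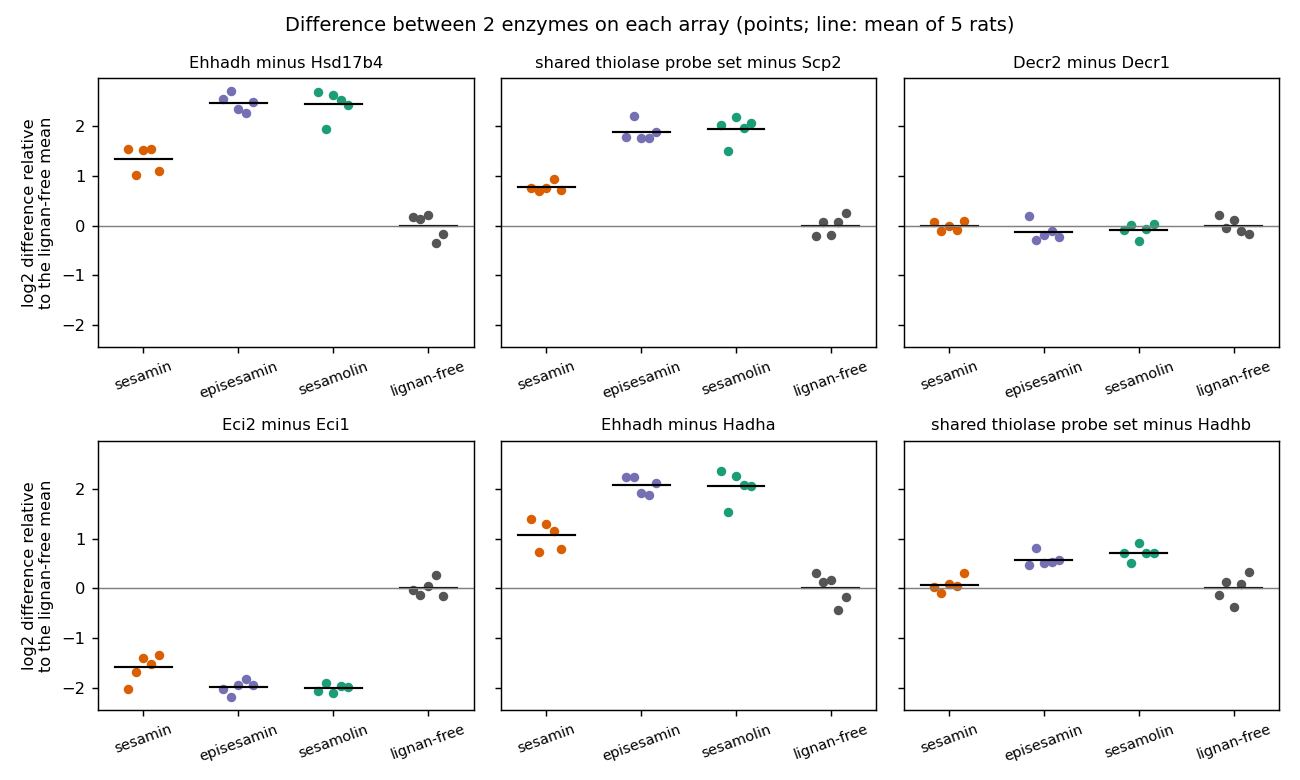
Difference of 2 genes' log2 values on each array, relative to the lignan-free mean, with 1 point per rat, a line at the mean of 5 rats and diets from left to right as sesamin, episesamin, sesamolin and lignan-free. Ehhadh gains on Hsd17b4 and on Hadha with every lignan, Eci2 falls behind Eci1, and Decr2 minus Decr1 stays around 0.

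Thiolytic cleavage is the last step of the cycle. Acaa1a and Acaa1b encode the peroxisomal ketoacyl-CoA thiolases of straight chains in rodents, and Scp2 gives rise to a thiolase for branched chains and to sterol carrier protein. The shared thiolase probe set had normalized intensities of 4566, 4049, 4486, 4952 and 4149.8 with sesamin, 8850.1, 10713, 8342, 8065 and 8661 with episesamin and 9182, 7445, 10594, 8850.1 and 9671 with sesamolin, against 2382, 2855, 2263, 2569 and 3042 without lignan. Arrays with episesamin and sesamolin were all above those with sesamin, and these were all above the lignan-free arrays. In a fit to all 21067 probe sets above the filter level, where 0.256%, 1.96% and 1.93% were called higher with sesamin, episesamin and sesamolin, the signal rose 1.7-fold (log2 change 0.76 ± 0.11, adjusted p = 0.00144), 3.4-fold (1.77 ± 0.11, adjusted p = 4.24e-09) and 3.48-fold (1.80 ± 0.11, adjusted p = 3.48e-09).

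Scp2 was not called in any of these comparisons. Its brighter probe set ranged over 9552 to 10224 with sesamin, 8850.1 to 9805 with episesamin and 8578 to 10011 with sesamolin, against 9315 to 10442 without lignan. Log2 changes were −0.0054 ± 0.066, −0.11 ± 0.066 and −0.15 ± 0.066 (adjusted p = 0.992, 0.368 and 0.202), with 95% intervals of −0.14 to 0.13, −0.25 to 0.027 and −0.29 to −0.012 before adjustment. The other Scp2 probe set gave 0.062, −0.19 and −0.10 (adjusted p = 0.967, 0.274 and 0.593 over every probe set). The shared thiolase probe set gained on Scp2 by 0.77 with sesamin, 1.88 with episesamin and 1.95 with sesamolin, without overlap of the arrays (exact permutation p = 0.00794, adjusted p = 0.0102 each).

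The auxiliary enzymes for unsaturated chains were all higher with every lignan. Ech1 is a dienoyl-CoA isomerase found in peroxisomes and mitochondria, which shifts a conjugated pair of double bonds. Its normalized intensities were 4836, 5045, 4470.5, 4674 and 3151 with sesamin, 7713, 7597, 7738, 7479.6 and 6907 with episesamin and 7201, 6421, 6733, 6444 and 7176 with sesamolin, against 1058, 1427, 1928, 1182 and 1335 without lignan. No lignan array overlapped with the lignan-free arrays. Ech1 rose 3.22-fold with sesamin (log2 change 1.69 ± 0.14, adjusted p = 5.44e-07), 5.49-fold with episesamin (2.46 ± 0.14, adjusted p = 5.6e-10) and 4.98-fold with sesamolin (2.32 ± 0.14, adjusted p = 1.41e-09).

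Decr2 is the peroxisomal dienoyl-CoA reductase. It had normalized intensities of 3094, 2523, 2564, 2509.9 and 2389 with sesamin, 4261, 3080.5, 3198, 3178 and 3122 with episesamin and 3470.2, 3130.0, 2796, 3529.8 and 3746 with sesamolin, against 1482, 1330.4, 1615, 1194 and 1259.7 without lignan. Here too every lignan array was above every lignan-free array. Decr2 rose 1.9-fold with sesamin (log2 change 0.93 ± 0.11, adjusted p = 0.000112), 2.44-fold with episesamin (1.28 ± 0.11, adjusted p = 3.74e-07) and 2.42-fold with sesamolin (1.27 ± 0.11, adjusted p = 4.13e-07).

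Eci2, an enoyl-CoA isomerase that moves an isolated double bond into the position the bifunctional enzymes accept, had the narrowest change of the 3. Its normalized intensities were 2248, 2300.3, 2742, 2486 and 2348 with sesamin, 3113, 2900.4, 3061, 3130.0 and 3069 with episesamin and 3147, 2796, 2931, 2927 and 3194 with sesamolin, against 1796, 1688, 2029.7, 1639 and 1706 without lignan. The lowest sesamin array exceeded the highest lignan-free array by a small margin, and the arrays of the other two lignans stood further above. Eci2 rose 1.37-fold with sesamin (log2 change 0.45 ± 0.077, adjusted p = 0.00473), 1.73-fold with episesamin (0.79 ± 0.077, adjusted p = 1.37e-06) and 1.69-fold with sesamolin (0.76 ± 0.077, adjusted p = 2.48e-06). The call with sesamin was lost with arrays scaled to a common median (adjusted p = 0.238) and when only the 2 diets compared were fitted (0.138). A probe set annotated to both Eci3 and Eci2 gave log2 changes of 0.23, 0.36 and 0.26 (adjusted p = 0.671, 0.046 and 0.149 over every probe set).

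Catalase, the abundant peroxisomal enzyme that removes hydrogen peroxide formed in the first oxidation, was not called with any lignan. Cat averaged 8105 ± 599 with sesamin, 7919.8 ± 239.9 with episesamin and 8409 ± 268 with sesamolin, against 7649 ± 388 without lignan (normalized intensity, SD, n = 5 each). The 4 diets overlapped. Its log2 changes were 0.082 ± 0.068, 0.051 ± 0.068 and 0.14 ± 0.068, with 95% intervals of −0.061 to 0.22, −0.091 to 0.19 and −0.0051 to 0.28 (adjusted p = 0.867, 0.732 and 0.266). The upper bounds of these intervals lie below every log2 change of Ech1, Decr2 and Eci2.

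The lignans were fed at the same share of the diet for the same time, which allows the diets to be compared with each other. Food intake and the amount of each lignan in the liver were not part of the data used here. Episesamin gave higher RNA than its epimer sesamin for 5 of the 8 members (Ehhadh, Ech1, Abcd3, Hsd17b4 and Eci2), where 0.821% of all genes were called higher. Ehhadh was 2.9-fold higher with episesamin than with sesamin (log2 difference 1.53 ± 0.19, adjusted p = 0.000336) and averaged 10002 ± 1489 against 3489 ± 749 (SD, n = 5 each). The difference was 0.77 ± 0.14 for Ech1 (adjusted p = 0.00642), 0.47 ± 0.11 for Abcd3 (0.0432), 0.41 ± 0.070 for Hsd17b4 (0.00457) and 0.34 ± 0.077 for Eci2 (0.0344). All 5 episesamin arrays exceeded all 5 sesamin arrays for these 5 genes, where 2.15% of all genes separated in this direction. Decr2 differed by 0.36 ± 0.11 (95% interval 0.12 to 0.60) and was not called (adjusted p = 0.155). Cat and Scp2 differed by −0.031 and −0.11, with intervals of −0.17 to 0.11 and −0.25 to 0.032.

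Sesamolin, with its additional ether oxygen, also exceeded sesamin for 5 of 8 members (Ehhadh, Ech1, Abcd3, Hsd17b4 and Eci2), in a comparison that shares the sesamin arrays with the one before and where 1% of all genes were called higher. Ehhadh was 2.71-fold higher with sesamolin than with sesamin (log2 difference 1.44 ± 0.19, adjusted p = 0.000413). The difference was 0.63 ± 0.14 for Ech1 (adjusted p = 0.0225), 0.49 ± 0.11 for Abcd3 (0.0305), 0.34 ± 0.070 for Hsd17b4 (0.0173) and 0.31 ± 0.077 for Eci2 (0.0455). For these 5 genes all sesamolin arrays exceeded all sesamin arrays, where 2.3% of all genes did so. Decr2 differed by 0.35 ± 0.11 (95% interval 0.11 to 0.59, adjusted p = 0.138). For the shared thiolase probe set the log2 difference from sesamin was 1.003 ± 0.11 with episesamin (adjusted p = 0.000131) and 1.04 ± 0.11 with sesamolin (adjusted p = 7.95e-05), where 0.617% and 0.56% of all probe sets were called higher. The calls of Ehhadh against sesamin were kept in all 16 other settings and with any 1 array left out, whereas those of Abcd3, Hsd17b4, Ech1 and Eci2 were lost in some. With episesamin the calls of Abcd3, Hsd17b4, Ech1 and Eci2 were kept in 7, 14, 15 and 7 of the 16 settings, and with sesamolin in 11, 11, 12 and 7. With 1 of the 20 arrays left out in turn, they were kept 6, 20, 20 and 11 times with episesamin and 16, 19, 16 and 3 times with sesamolin. The count of 5 with episesamin fell to 3 without sesamin replicate 2, 4 or 5 or any 1 episesamin array, and that with sesamolin fell to 3 without sesamin replicate 2 or 4 or sesamolin replicate 3 and to 2 without sesamin replicate 5 or sesamolin replicate 1 or 5.

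Sesamolin and episesamin were not told apart by any member. The limma fit called 0 of 8 members between these diets in either direction. Over all 11576 genes, 0 were called higher with sesamolin than with episesamin, and 662 genes and 0 members had an unadjusted p below 0.05. The fit to every probe set called 1 of 21067 probe sets (0.00475%) higher with sesamolin and none of the members' in either direction. Calls lower with sesamolin were not counted over all genes or probe sets. The log2 difference between sesamolin and episesamin was −0.094 ± 0.19 for Ehhadh (95% interval −0.49 to 0.30), −0.14 ± 0.14 for Ech1 (−0.43 to 0.15) and 0.015 ± 0.11 for Abcd3 (−0.22 to 0.25). It was −0.071 ± 0.070 for Hsd17b4 (−0.22 to 0.076), −0.028 ± 0.077 for Eci2 (−0.19 to 0.13), −0.010 ± 0.11 for Decr2 (−0.25 to 0.23), −0.039 ± 0.066 for Scp2 (−0.18 to 0.10) and 0.086 ± 0.068 for Cat (−0.056 to 0.23). A p that misses the threshold does not show that the 2 lignans act alike, and for Ehhadh the interval spans 0.713 to 1.23-fold.

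**Figure D4:**
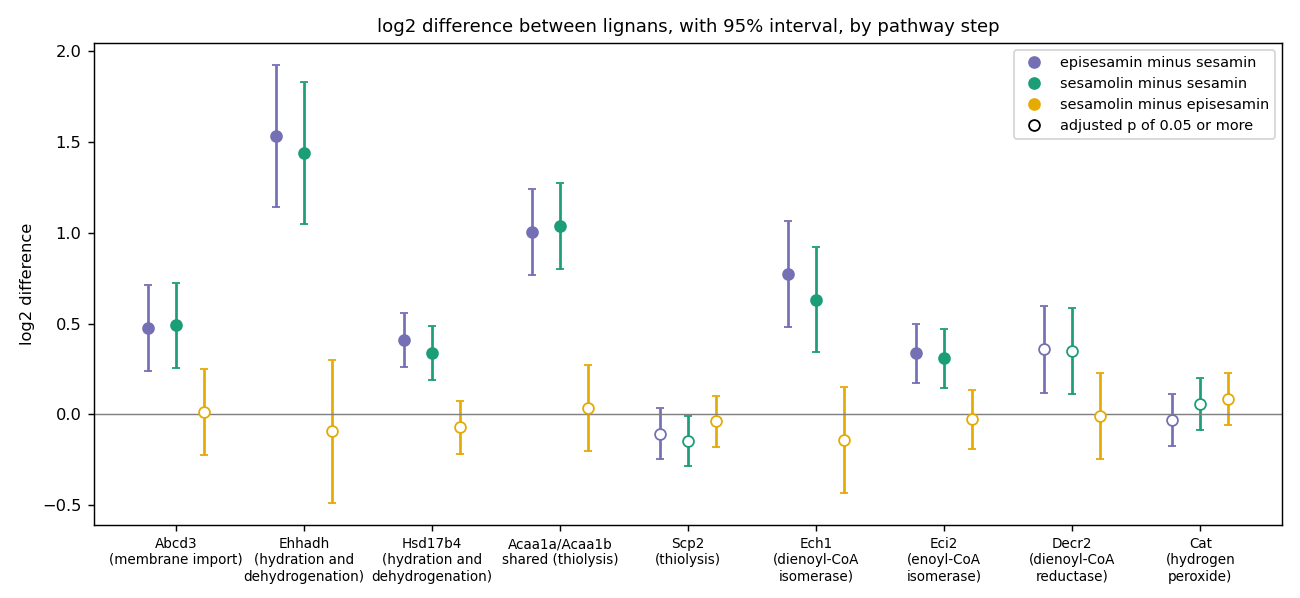
Log2 difference between lignans for 8 members and the shared thiolase probe set (open where not called), as episesamin minus sesamin, sesamolin minus sesamin and sesamolin minus episesamin, with bars for the 95% interval. Ehhadh differs most from sesamin, at 1.53 with episesamin and 1.44 with sesamolin, and every interval of sesamolin minus episesamin includes 0.

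Ehhadh and Ech1, the 2 members that changed most, are set side by side as a description. With sesamin, Ehhadh and Ech1 had log2 changes of 1.61 and 1.69, whereas with episesamin they had 3.15 and 2.46. This pair was chosen after its values had been seen, so no test is given. The mean of Ehhadh minus Ech1 over the arrays of a diet, relative to the lignan-free mean, was −0.072 with sesamin, 0.69 with episesamin and 0.74 with sesamolin.

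Mitochondria hold enzymes for the corresponding steps, and the RNA of these enzymes is set beside that of the members. Whole-liver RNA does not show in which compartment a product acts, and Ech1 is found in both. Of 11 mitochondrial counterparts, 6 rose with sesamin, 10 with episesamin and 10 with sesamolin, where 0.397%, 2.91% and 3.28% of all genes rose, and none fell. Without normalization between arrays these counts were 1, 5 and 5. The median log2 changes of the mitochondrial counterparts, 0.40, 0.74 and 0.65, stand beside 0.36, 0.77 and 0.76 for the 8 members, and that difference was not tested. Echs1, the short-chain enoyl-CoA hydratase, was not called, with 0.093, −0.11 and −0.16. Decr1, the mitochondrial dienoyl-CoA reductase, rose by 0.93 ± 0.082, 1.41 ± 0.082 and 1.36 ± 0.082 with sesamin, episesamin and sesamolin. Decr2 minus Decr1 differed from the lignan-free value by −0.0076, −0.12 and −0.084 (exact permutation p = 0.921, 0.254 and 0.389, n = 5 each), and the diets overlapped. With episesamin this rested on replicate 1, without which the difference was −0.20 and passed (exact permutation, adjusted p = 0.0381).

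With all arrays kept, the isomerases separated, whereas the reductases overlapped. Eci1, the mitochondrial enoyl-CoA isomerase, rose by 2.04 ± 0.12, 2.77 ± 0.12 and 2.77 ± 0.12, so that Eci2 minus Eci1 stood at −1.59, −1.98 and −2.01, with every lignan array below every lignan-free array (exact permutation p = 0.00794, adjusted p = 0.0102 each). The Eci1 probe set has a suffix that marks possible cross-hybridization, and a second, dim Eci1 probe set (mean 22.3 without lignan) gave −0.21, 0.84 and 0.84, none of them called. With the mean of both, Eci2 minus Eci1 was −0.47 with sesamin (adjusted p = 0.102), −1.02 with episesamin and −1.04 with sesamolin.

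Hadha and Hadhb, the subunits of the mitochondrial trifunctional protein, carry the activities that Ehhadh and the thiolases have in peroxisomes. Hadha rose by 0.55 ± 0.076, 1.07 ± 0.076 and 0.99 ± 0.076, and Ehhadh gained on it by 1.07, 2.08 and 2.06 (exact permutation p = 0.00794, adjusted p = 0.0102 each). Hadhb rose by 0.69 ± 0.089, 1.19 ± 0.089 and 1.09 ± 0.089. The shared thiolase probe set gained on Hadhb by 0.58 with episesamin and 0.71 with sesamolin (exact permutation p = 0.00794, adjusted p = 0.0102 each). With sesamin that gain was 0.076 and the arrays overlapped (exact permutation p = 0.659).

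Other genes of the organelle were counted in 2 lists. Of 22 further genes of peroxisomal fatty acid oxidation, acyl-CoA handling and export, 19 were tested, and 5, 10 and 12 of them rose with sesamin, episesamin and sesamolin, where 0.397%, 2.91% and 3.28% of all genes did, while none fell. Their median log2 changes were 0.30, 0.57 and 0.52. Crot and Crat, the carnitine acyltransferases that pass shortened chains on, rose by 1.81, 2.49 and 2.50 and by 1.73, 3.49 and 3.37. The thioesterase Acot3 rose by 1.86, 3.41 and 3.20, and Nudt7, a diphosphatase of coenzyme A, by 0.90, 1.77 and 1.76. Pecr, the trans-enoyl-CoA reductase, and Amacr, the racemase of branched chains, were not called, with 0.072, 0.20 and 0.18 and with 0.35, −0.29 and −0.074. Against sesamin, 6 of the 19 were higher with episesamin and 7 with sesamolin, as were 6 and 5 of the 11 mitochondrial counterparts, where 0.821% and 1% of all genes were higher. Neither list had a member called between sesamolin and episesamin. Without normalization between arrays the count of 12 with sesamolin was 7.

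Peroxisomal enzymes with tasks outside fatty acid oxidation made up the other list. Of 17 tested of 21 listed, 2, 5 and 4 rose (0.397%, 2.91% and 3.28% of all genes), 0, 1 and 1 fell (0.0346%, 2.21% and 2.95% of all genes), and the median log2 changes were 0.11, 0.12 and 0.070. Lonp2, the peroxisomal protease, rose by 0.50, 0.85 and 0.86, and Aldh3a2, a fatty aldehyde dehydrogenase, by 0.34, 0.53 and 0.45. Tysnd1, a processing protease of peroxisomal enzymes, rose by 0.61 with episesamin and 0.56 with sesamolin and had 0.25 with sesamin (adjusted p = 0.582). Agxt, the alanine-glyoxylate aminotransferase, rose by 0.52 and 0.54 with these lignans and had 0.49 with sesamin (adjusted p = 0.0566). Hao2, a hydroxyacid oxidase named here as the 1 gene that fell, had log2 changes of −0.43 with episesamin and −0.40 with sesamolin. Neither call was kept without normalization between arrays. The call with sesamolin was also lost without the 6 arrays whose mean raw intensity was below 200. The oxidase Hao1 and Baat, which conjugates bile acids, were not called, with −0.022, −0.039 and −0.076 and with 0.042, −0.083 and −0.18. The 2 calls with sesamin did not hold in 8 of the other settings, which left 0.

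**Figure D5:**
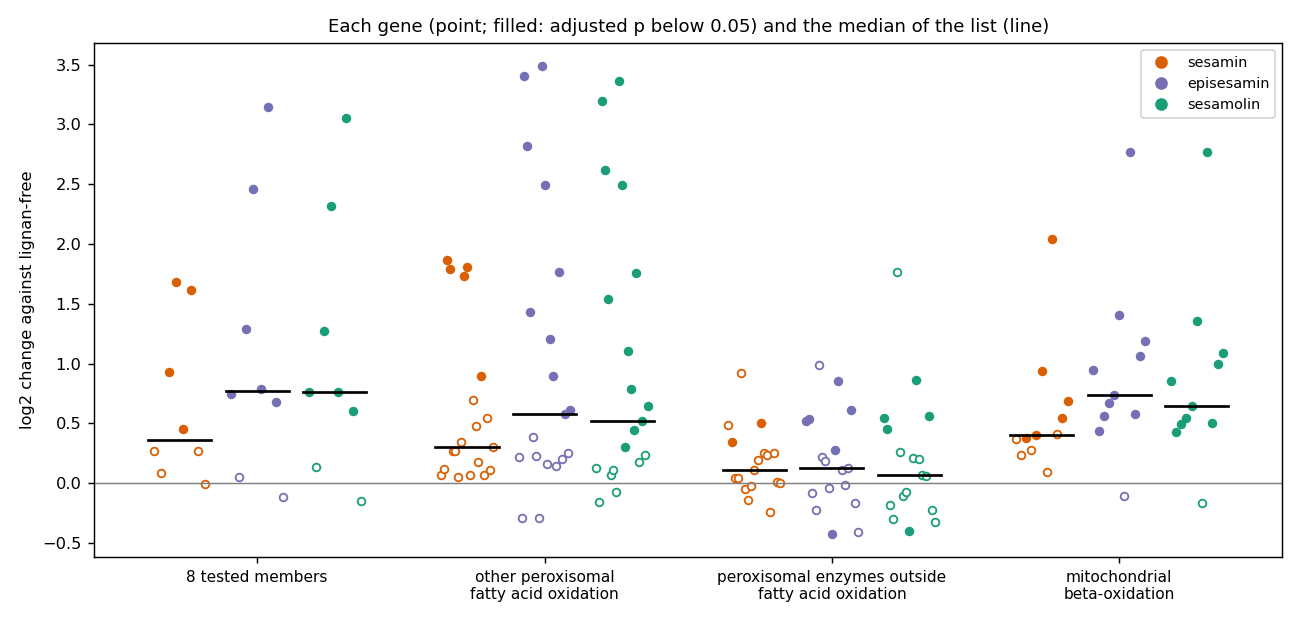
Log2 change against the lignan-free diet of the 8 members, of the further genes of peroxisomal fatty acid oxidation, of peroxisomal enzymes outside it and of the mitochondrial counterparts, with 1 point per gene, filled where called, and a line at the median, for sesamin, episesamin and sesamolin. The medians of the enzymes outside fatty acid oxidation lie at 0.070 to 0.12, and the highest member is Ehhadh at 3.15 with episesamin.

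Members were also placed by how alike their 3 log2 changes were, as the root mean square difference over the 3 lignans, a description over values that share the lignan-free arrays. The genes nearest to Ehhadh among 11575 others were Vnn1, a pantetheinase (0.102), Acot3 (0.223), Crat (0.276), Pex11a, of peroxisome division (0.292), Acot4 (0.328), Colq (0.335), Eci1 (0.369) and Acot2 (0.384), where the median over all genes was 2.71. Its nearest member was Ech1, at 0.583. Hsd17b4 lay closest to Abcd3 within the set (0.098). Over all genes its nearest were Nol4 (0.0276), Cela1 (0.0334), Rogdi (0.0342), Acads, a mitochondrial acyl-CoA dehydrogenase (0.0346), and Plin2, a coat protein of lipid droplets (0.0360). Within the set, Eci2 was also nearest to Abcd3 (0.107) and Decr2 to Eci2 (0.496). Among all genes, Ech1 ranked 16 in nearness to Ehhadh, Abcd3 ranked 54 to Hsd17b4 and 39 to Eci2, and Eci2 ranked 144 to Decr2. For Cat the nearest were Ankrd40, Chmp6, Pierce2, Gatd3a and Smg6, at 0.00137 to 0.0125, but 5242 genes lay within 0.2 of it, against 355 within 0.2 of Hsd17b4 and 1 of Ehhadh.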

How the data were processed

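Biotin-labelled cRNA of each rat's liver RNA was hybridised to 1 array, per the labels. The authors deposited linear intensities of 31099 probe sets on each of 20 arrays, without a common scale (array means 159 to 271). The software behind these values is not stated in the sources used here. Quantile normalization was applied, 5.85 (20th percentile) was added to each value and log2 was taken. Probe sets with 1 symbol that exceeded 17.8 (40th percentile) on at least 5 arrays were kept, and the brightest stood for its gene (11576 genes); a normalized intensity is the value before the offset. Control probe sets (57) were left out. A model of 4 diet means was fitted by limma 3.58.1 (R 4.3.3, residual degrees of freedom 16, prior 2.596), with two-sided tests, Benjamini-Hochberg adjustment over the genes of a comparison and a threshold of 0.05. Probe sets with several symbols were read from a second fit to 21067 probe sets. Gene pairs were compared by two-sided exact permutation.

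The members and lists were chosen with earlier results of these data known. All members are reported. Partner genes belong to fixed pairs, and from each list up to 4 genes of lowest adjusted p and up to 2 of highest level that did not pass are named, with the 8 genes most like Ehhadh and 5 each for Hsd17b4 and Cat. The shared thiolase probe set stands in for Acaa1a in the pairs, and 1 planned pair is not reported here. Replicates are separate rats, and no arrays were identical (within-diet correlations 0.960 to 0.980). The fit was tested on simulated data, in the comparison of episesamin against lignan-free. It called 80 of 100 genes with a set log2 change of 1 in size. With a change of 0.5 it called 39 of 100, and with none 6 of 11376. A gene that is not called may therefore still differ. Alternatives changed the scaling, offset, filter, choice of probe set, variance moderation, array weights, diets fitted, pairing, covariates and arrays.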

Additional observations from a re-analysis of the deposited data

Results flagged for a closer look

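Of 44 sets of 5 arrays (11 probe sets over 4 diets), 5 held an array far from the others, where chance gives about 5%. Far means that its gap to its nearest neighbour, as a share of the set's range, was above Dixon's 95% critical value of 0.71. Gaps and ranges were taken on log2 values after the offset, so the shares do not follow from the linear intensities printed here. Decr2 had replicate 1 high with sesamin (3094, the other 4 at 2389 to 2564, share 0.726) and replicate 1 high with episesamin (4261, the others at 3080.5 to 3198, share 0.884). Ech1 had replicate 5 low with sesamin (3151, the others at 4470.5 to 5045, share 0.743). Ehhadh had replicate 2 low with sesamolin (6143, the others at 9552 to 11049, share 0.752). On that same array the brighter Scp2 probe set was high (10011, the others at 8578 to 8850.1, share 0.798). Every call of these genes against the lignan-free diet was kept without the array in question. Between lignans, the Ech1 call of sesamolin against sesamin was lost without sesamin replicate 5 (log2 difference 0.52, adjusted p = 0.0553 in the limma fit).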

How the results depend on the processing

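Against the lignan-free diet, Ehhadh and Ech1 kept their direction and call for all 3 lignans under each of 16 other settings and without any 1 of the 20 arrays, and no called change of a member turned its sign. Without normalization between arrays, 2 members were called with sesamin, 3 with episesamin and 3 with sesamolin, against 4, 6 and 6 otherwise. The counts against sesamin, 5 each, moved more. With episesamin against sesamin, 2 members were called after scaling to a common median, 1 without normalization, and 3 each without a filter, with every probe set on its own, with only the diets compared, with array brightness or the actin ratio as a covariate and without the 6 dim arrays (range 3 to 5 with 1 array left out). With sesamolin against sesamin, 2 were called after scaling to a common median and 1 each without normalization, with only the diets compared, without the dim arrays and without the arrays numbered 1 (range 2 to 5). The other counts of members stayed within 1.5 times. Without normalization the median of all genes itself shifted by −0.25 with episesamin and −0.22 with sesamolin against the lignan-free diet, and scaling to a common median shifted that of episesamin by −0.13. Eci2 minus Eci1 with sesamin was −0.47 (adjusted p = 0.102) when probe sets of a gene were averaged. Without the dim arrays, 4 lignan-free arrays remained, with 4 sesamin arrays and 3 of each other lignan. The adjustment ran over all 18 pair tests together, and with so few arrays no adjusted p of a pair could fall below 0.05. With sesamin it was 0.0735 for Ehhadh minus Hsd17b4 (1.47), the shared thiolase probe set minus Scp2 (0.73), Eci2 minus Eci1 (−1.54) and Ehhadh minus Hadha (1.19), which decides nothing. For the other lignans only the values were taken. Decr2 minus Decr1 with episesamin ran between −0.20 and −0.072 with 1 array left out and passed (adjusted p = 0.0381) without episesamin replicate 1. Counts over the lists were recomputed after the data were seen. Of the enzymes outside fatty acid oxidation, 0 in place of 2 were called with sesamin under median scaling, no normalization, no filter, every probe set, only the diets compared, either covariate and without the dim arrays, and 1 with the mean of probe sets, the block or without the arrays numbered 1. Without normalization, 0 of them were called with episesamin and 0 with sesamolin. Without the dim arrays 3 were called with sesamolin, all higher, in place of 4 higher and 1 lower. Of the mitochondrial counterparts, 3 were called with sesamin under median scaling, and 1, 5 and 5 without normalization. Of the further oxidation genes, 7 were called with sesamolin without normalization. The causes of these shifts were not tested.

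Same-numbered arrays of different diets were checked for pairing. The correlation of their deviations was above 0.1 in 1 to 3 of 5 pairs, with values of −0.059 to 0.25, and 4 of 5 arrays of the sesamin diet and 4 of 5 of the episesamin diet correlated best with the lignan-free array of their own number, against 1 or 2 of 5 in the other comparisons. With the replicate block, 4, 6 and 6 members were called against the lignan-free diet and 4, 5 and 0 between lignans (episesamin against sesamin, sesamolin against sesamin, sesamolin against episesamin), where Abcd3 lost its call against sesamin with episesamin (adjusted p = 0.0654).

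The number of arrays, 5 per diet, limits the precision of small differences such as those between lignans for Decr2. Each probe set reads a short part of its transcript, and RNA says nothing of enzyme activity or of the number of peroxisomes.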
